A study of Mus musculus with 18 samples.

Results

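The genes described here are 6 genes of metallothionein and zinc handling, Mt1, Mt2, Mtf1, Slc30a1, Slc39a14 and Slc39a8, taken by symbol from all 18 expression tables. All 6 were listed in every table, among 24338 symbols that every table lists. They were chosen by the culture values of Mt2, whose NFIA-Tg to WT difference changed more between day 0 and day 7 than that of nearly every other gene, so the culture values of Mt2 are given without a test.

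Polyadenylated RNA was sequenced from iWAT, the inguinal white adipose tissue of mice, which is a subcutaneous depot in the groin, and from cultures of the stromal-vascular cells of that depot, which hold the precursors of fat cells. The 6 groups were NFIA-Tg iWAT, WT iWAT, NFIA-Tg cultures at day 7, WT cultures at day 7, NFIA-Tg cultures at day 0 and WT cultures at day 0, with 3 samples each. NFIA-Tg samples carry a transgene for NFIA (gene Nfia), which belongs to the nuclear factor I family of DNA-binding proteins. The sources used here do not give the promoter of the transgene or the sex and age of the animals. Day 0 cultures were sampled before induction. Day 7 cultures of both genotypes had received isobutylmethylxanthine, indomethacin, dexamethasone (1 µM), insulin, T3 and rosiglitazone (1 µM) for 48 hours and then insulin, T3 and rosiglitazone, so dexamethasone, a synthetic glucocorticoid, and insulin were given to NFIA-Tg and WT cells alike. Nothing states whether the 3 samples of a group came from separate animals or cultures, so the p-values cover the spread among these samples alone, and that spread may be technical.

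Metallothioneins are small proteins rich in cysteine that bind zinc and copper and so buffer free metal in the cell. The zinc-sensing transcription factor MTF-1, encoded by Mtf1, binds metal response elements in metallothionein promoters and induces them when zinc rises, and glucocorticoids and oxidative stress also induce them. Slc30a1 (ZnT1) exports zinc across the plasma membrane and is itself a target of MTF-1, while Slc39a14 (ZIP14) and Slc39a8 (ZIP8) import zinc, iron and manganese, Slc39a14 being known for its induction by interleukin 6 in liver.

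The promoters of Mt2, Mt1 and Slc30a1 are shown because these 3 genes are the textbook targets of MTF-1 in the set and because the levels of Mt1 and Mt2 followed each other across the cultures. Each line gives the 250 bases before the annotated start on the gene's strand, from RefSeq (build GRCm38.p6), 5′ to 3′. Capitals mark the metal response element core, searched as TGCACNC or TGCGCNC on both strands. The windows are chr8:94172368-94172617 for Mt2, chr8:94178839-94179088 for Mt1 and chr1:191906531-191906780 for Slc30a1, all on the plus strand.
Mt2: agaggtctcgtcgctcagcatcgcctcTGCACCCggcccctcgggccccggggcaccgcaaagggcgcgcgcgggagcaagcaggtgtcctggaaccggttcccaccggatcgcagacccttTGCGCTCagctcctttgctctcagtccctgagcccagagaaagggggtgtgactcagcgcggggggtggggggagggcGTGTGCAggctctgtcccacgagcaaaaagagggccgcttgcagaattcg
Mt1: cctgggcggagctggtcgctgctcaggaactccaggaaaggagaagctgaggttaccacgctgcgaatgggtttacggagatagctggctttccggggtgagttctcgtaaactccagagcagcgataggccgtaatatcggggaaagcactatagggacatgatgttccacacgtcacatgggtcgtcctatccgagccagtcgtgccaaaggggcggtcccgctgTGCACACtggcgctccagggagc
Slc30a1: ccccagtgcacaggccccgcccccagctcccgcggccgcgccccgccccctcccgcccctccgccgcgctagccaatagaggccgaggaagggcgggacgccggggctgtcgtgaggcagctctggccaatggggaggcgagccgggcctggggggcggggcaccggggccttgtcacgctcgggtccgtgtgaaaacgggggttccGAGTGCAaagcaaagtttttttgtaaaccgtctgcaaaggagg

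With the first 50 bases after the start included, the Mt2 window held 4 matches to the core, beginning 223, 128 and 50 bases before the start and 4 bases after it. The Mt1 window held 3 matches, beginning 23 bases before the start and 2 and 20 bases after it, and the Slc30a1 window held 2. Of 32851 promoter windows of 300 bases, 25.7% held at least 1 match, 1.97% at least 3 and 0.517% at least 4. The Mtf1 window held 0 matches, and the 2 annotated starts of Slc39a8 held 0 and 1. Slc39a14 had no entry, so 5 of the 6 genes were matched. The antioxidant response element core, searched as TGACNNNGC on both strands, occurred once in the Mt2 window, 79 bases before the start, once in that of Slc30a1 and at 1 of the 2 starts of Slc39a8, against 12.4% of all windows. The palindromic site of the nuclear factor I family, searched as TTGGC and GCCAA with 5 bases between them, occurred in none of these windows and in 0.0365% of all windows. Its shorter form TTGGCA occurred in the Mt1 window, with 2 matches, and in 14.1% of all windows. Matches of different motifs did not overlap in these windows, and a match describes letters and not binding. Only windows at the annotated starts were searched, and whether these cells use those starts was not checked. Matches outside the windows were not counted, so a motif absent here may lie nearby.

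Levels are in FPKM (fragments per kilobase, scaled to library size), as mean ± SD with n = 3 a group. Changes are differences of log2(FPKM + 1) ± SE, which understate the change of low genes. Calls were made with limma where the p-value, adjusted after Benjamini and Hochberg over all genes tested, was under 0.05. The culture libraries held 16772594 to 28625625 recovered reads, of which Mt1 had 1011 to 19621 per library, Mt2 737 to 20470, Mtf1 517 to 798, Slc30a1 319 to 560, Slc39a14 348 to 6967 and Slc39a8 90 to 273. The depth of the iWAT libraries is unknown. The iWAT tables list other gene lengths than the culture tables, 1238 against 542 bases for Mt1, and whether the iWAT FPKM were computed with the lengths listed there could not be checked. Levels were therefore compared within iWAT or within the cultures and not between them. In iWAT the level of one gene relative to another, such as the ratio of Mt2 to Mt1, depends on the length used. The ratio of FPKM between iWAT samples in 1 gene does not. The change of log2(FPKM + 1) and the filter at FPKM 1 do depend on it, mostly for low genes. Slc39a8, for example, is listed at 63293 bases in iWAT and 3919 bases in the cultures. Within groups, log2 values correlated across genes with r of 0.972 to 0.996, and 0 pairs of libraries were identical. Because these are bulk samples, fewer cells of a type and less RNA per cell cannot be told apart.

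The check of the genotype labels on Nfia came out differently in the 3 settings. In iWAT, Nfia was 141 ± 36.0 FPKM in NFIA-Tg and 3.96 ± 0.23 FPKM in WT samples. At day 7 it was lower in the libraries labelled NFIA-Tg (6.99 ± 0.48 FPKM) than in those labelled WT (12.5 ± 0.52 FPKM), with a log2 change of -0.76 and an adjusted p of 3.34e-08 in limma, which goes against the labels. At day 0 the NFIA-Tg libraries had 11.9 ± 0.58 FPKM of Nfia and the WT libraries 6.41 ± 0.10 FPKM (log2 0.80, adjusted p = 6.75e-08 in limma). Genotype in the cultures is therefore given below as labelled.

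Mt1 and Mt2, the metallothioneins expressed in most tissues, were among the most abundant transcripts of the cultures labelled NFIA-Tg day 7. Mt1 stood at 1363, 1372 and 1302 FPKM in libraries labelled NFIA-Tg day 7 and at 227, 190 and 141 FPKM in those labelled WT day 7. At day 0 the order was the other way round, with 89.5, 87.9 and 93.1 FPKM in libraries labelled NFIA-Tg and 203, 208 and 240 FPKM in those labelled WT. In Mt1 the libraries of the 2 genotypes thus did not overlap at either day, and the libraries labelled NFIA-Tg day 7 lay above all 9 others. Mt2 stood at 1309, 1395 and 1404 FPKM in libraries labelled NFIA-Tg day 7, against 101, 91.8 and 65.4 FPKM in those labelled WT day 7. At day 0, Mt2 was at 69.1, 48.9 and 49.9 FPKM in libraries labelled NFIA-Tg and at 224, 192 and 243 FPKM in those labelled WT. The order of the 4 groups was the same for both genes from the top, NFIA-Tg day 7 above WT day 0 above WT day 7 above NFIA-Tg day 0, but neighbouring groups overlapped for Mt1 between WT day 7 and WT day 0 and for Mt2 between WT day 7 and NFIA-Tg day 0.

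**Figure D1:**
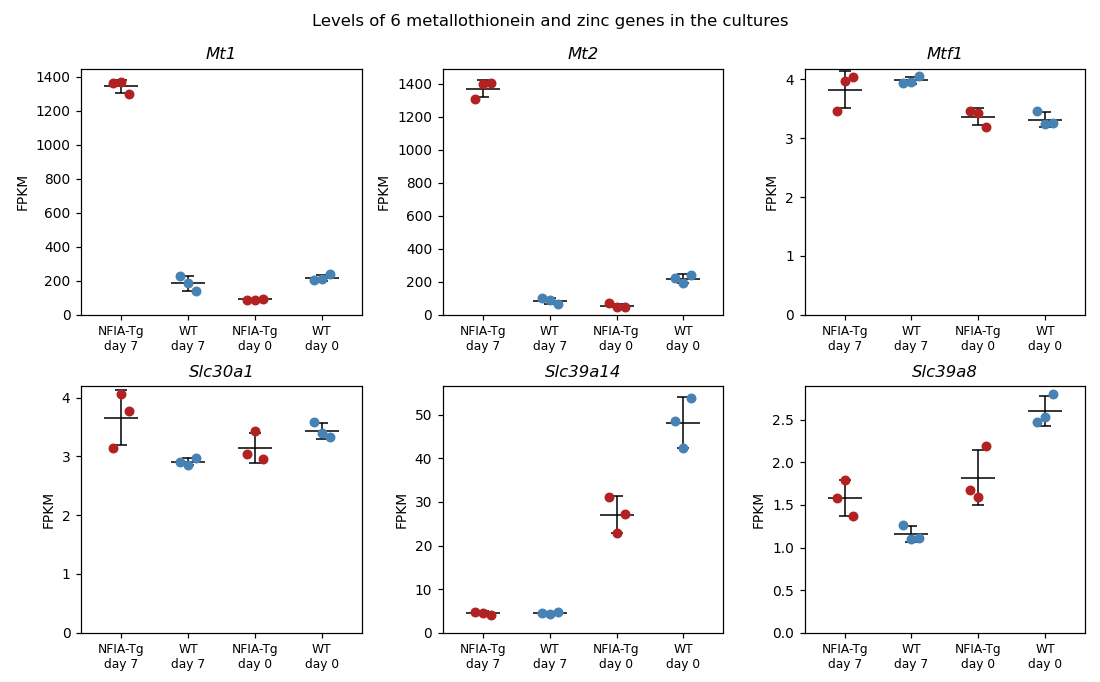
FPKM (linear axes from 0) of the 6 genes in the 12 culture libraries, 1 panel per gene, with NFIA-Tg in red, WT in blue, points for libraries and black bars for mean ± SD (n = 3). Mt1 and Mt2 lie at 1302 to 1404 FPKM in the libraries labelled NFIA-Tg day 7 and at 243 FPKM or less in the other 9, while Slc39a14 is far higher at day 0 than at day 7.

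At day 7, Mt1 averaged 1346 ± 38.2 FPKM in the libraries labelled NFIA-Tg and 186 ± 43.2 FPKM in those labelled WT, a ratio of 7.24, and it rose by limma (log2 2.88 ± 0.13, adjusted p = 5.71e-10). Mt2 averaged 1369 ± 52.6 FPKM in the libraries labelled NFIA-Tg and 85.9 ± 18.3 FPKM in those labelled WT, a ratio of 15.9 and a log2 difference of 4.0 ± 0.16. Of the 5 genes tested at day 7, 3 were higher in the libraries labelled NFIA-Tg, Mt1, Slc30a1 and Slc39a8, and 0 were lower by limma, at an unadjusted p under 0.05 or by voom, where 29.8% of all 12553 genes tested were called higher and 51.1% lower, 80.9% in all (4578 higher and 5414 lower with median-of-ratios scaling). A share of 3 in 5 called is thus no more than the share of all genes called. A larger log2 change than that of Mt1, in either direction, was found for 0.892% of genes. Mt1 followed Mt2 across these libraries (r = 0.974), and the set was chosen by Mt2 in the same libraries. The size of the Mt1 change is thus no independent result.

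At day 0, Mt1 averaged 90.2 ± 2.67 FPKM in the libraries labelled NFIA-Tg and 217 ± 20.1 FPKM in those labelled WT, and it was lower in NFIA-Tg by limma (log2 -1.25 ± 0.13, adjusted p = 3.70e-06). Mt2 averaged 56.0 ± 11.4 FPKM in the libraries labelled NFIA-Tg and 220 ± 25.6 FPKM in those labelled WT, a log2 difference of -1.96 ± 0.16. Of the 5 genes tested at day 0, 3 were lower in the libraries labelled NFIA-Tg, Mt1, Slc39a14 and Slc39a8, and 0 were higher by limma, at an unadjusted p under 0.05 or by voom, against 28.1% of all genes called higher and 34.9% lower, 63.0% in all. A larger log2 change than that of Mt1 was found for 3.41% of genes, which is likewise not independent of the choice of the set.

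Between day 7 and day 0 of the cultures labelled NFIA-Tg, Mt1 was 14.9 times as high at day 7 (log2 3.88 ± 0.13, adjusted p = 9.13e-12 in limma), and Mt2 was 24.5 times as high (log2 4.61 ± 0.16). In the cultures labelled WT, Mt1 was not called (log2 -0.24 ± 0.13, adjusted p = 0.0993 in limma), with overlapping days. Mt1 in WT was called lower at day 7 with median-of-ratios scaling (log2 -0.34, adjusted p = 0.0318) and without WT day 7 replicate 1 (log2 -0.40, adjusted p = 0.00493), the highest of its group. Mt2 in WT was at 0.391 times its day 0 level at day 7 (log2 -1.36 ± 0.16). Of the 5 genes tested between the days, 3 were higher and 1 lower at day 7 in the cultures labelled NFIA-Tg, where 45.7% of all genes were called higher and 41.5% lower, 87.2% in all. In those labelled WT 1 was higher and 3 lower, where 46.2% of all genes were called higher and 35.4% lower, 81.6% in all. The NFIA-Tg to WT difference and the difference between days share libraries, so these comparisons are not independent of each other.

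The contrast by which the set was chosen, the log2 difference at day 7 minus that at day 0, was 5.97 for Mt2, the second highest of 12553 genes, and 4.13 for Mt1, at rank 16. It was 0.79 for Slc39a14, 0.61 for Slc39a8, 0.35 for Slc30a1 and -0.06 for Mtf1. These values describe the choice of the set, and no test was made of them.

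**Figure D2:**
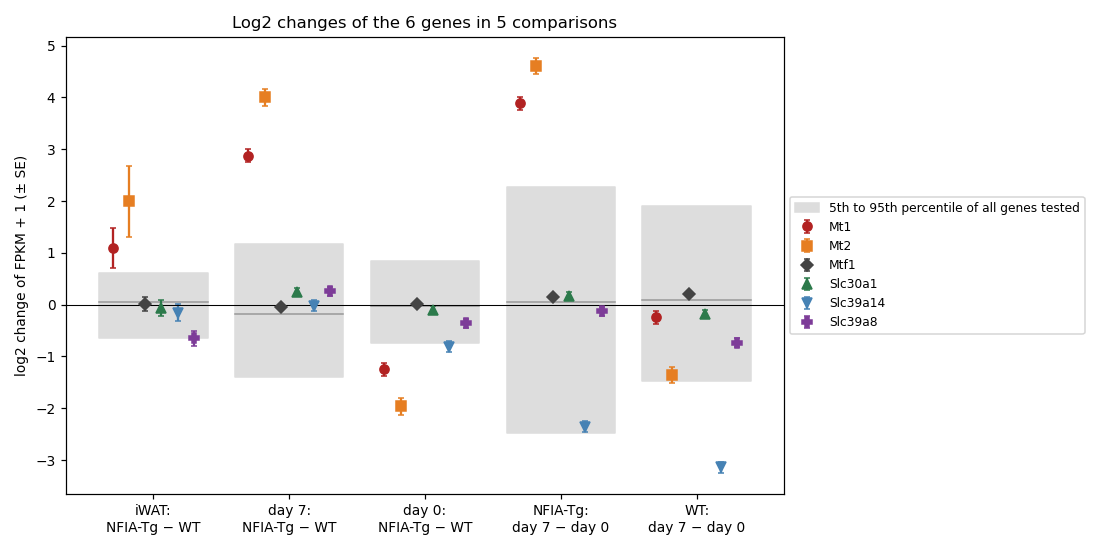
Log2 changes of FPKM + 1 (± SE) of the 6 genes in 5 comparisons (NFIA-Tg minus WT in iWAT, at day 7 and at day 0, then day 7 minus day 0 in NFIA-Tg and in WT), with grey boxes for the 5th to 95th percentile of all genes tested and a grey line for their median. Mt1 and Mt2 lie above the grey box in iWAT and at day 7 and below it at day 0, while Slc30a1, Mtf1 and Slc39a8 stay inside or at its edge.

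Summed, Mt1 and Mt2 came to 2672 to 2768 FPKM in the libraries labelled NFIA-Tg day 7, or 0.604 to 0.641% of all FPKM of a library. The sum was 206 to 327 FPKM in WT day 7, 137 to 159 FPKM in NFIA-Tg day 0 and 400.2 to 483 FPKM in WT day 0. Ranked by FPKM among 24825 symbols, Mt1 was number 19 in each library labelled NFIA-Tg day 7 and Mt2 numbers 15 to 20, while in those labelled WT day 7 the 2 genes held ranks 276 to 463 and 678 to 1126. The 2 genes did not move in proportion. The ratio of Mt2 to Mt1 in FPKM was 0.960 to 1.08 in NFIA-Tg day 7 and 0.443 to 0.483 in WT day 7, with no overlap. At day 0 it was 0.536 to 0.772 in NFIA-Tg and 0.925 to 1.11 in WT, again with no overlap. The ratio was therefore near 1 in the group with the higher metallothionein level at each day. In the GENCODE annotation of build GRCm38, the longest exact stretch shared by the transcripts of Mt1 and Mt2 is 20 bases.

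**Figure D3:**
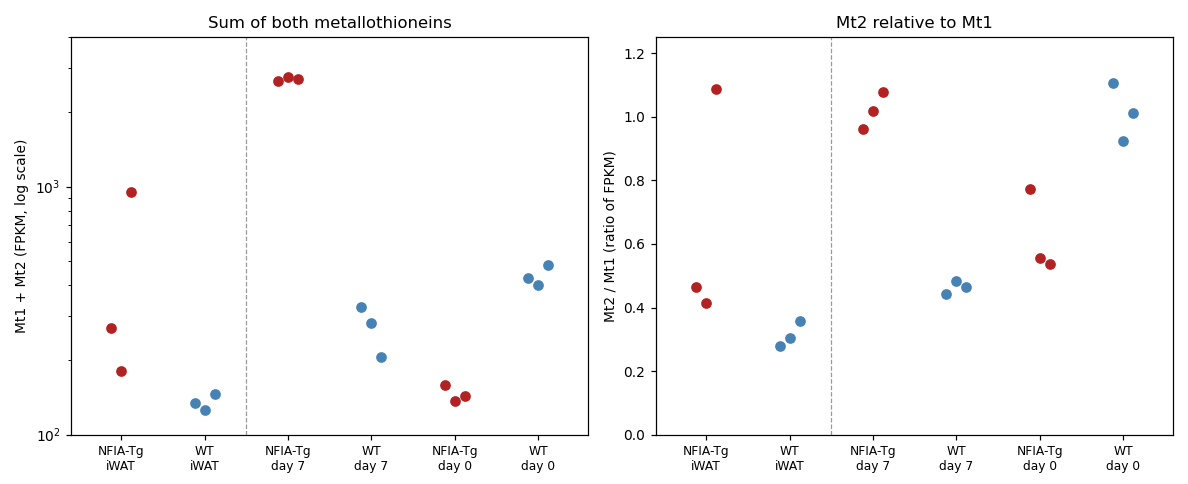
Sum of Mt1 and Mt2 in FPKM (left, log axis) and the ratio of Mt2 to Mt1 (right, linear axis from 0) in each library of the 6 groups, with NFIA-Tg in red and WT in blue. The dashed line parts iWAT from the cultures, whose tables list different gene lengths. NFIA-Tg iWAT replicate 3 stands above the other 5 iWAT libraries in both panels.

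The 2 remaining mouse metallothioneins were near or at 0. Mt3, known from the brain, had 1 read in the 12 culture libraries together, where 3 reads in a library correspond to 0.195 to 0.332 FPKM. In iWAT it was listed at 0 in 2 of 6 libraries and reached at most 1.85 FPKM. Mt4, known from stratified epithelia, was listed at 0 in all 18 libraries.

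In iWAT, the metallothioneins were higher in all 3 NFIA-Tg samples than in any WT sample, but neither was called. Mt1 stood at 183, 128 and 455 FPKM in NFIA-Tg iWAT and at 105, 96.8 and 108 FPKM in WT iWAT. Mt2 stood at 85.0, 53.0 and 494 FPKM in NFIA-Tg iWAT, against 29.4, 29.4 and 38.5 FPKM in WT iWAT. The WT samples lay close together, while NFIA-Tg replicate 3 was far above replicates 1 and 2 for both genes. The log2 change was 1.09 ± 0.39 for Mt1 (adjusted p = 0.108, unadjusted 0.0222 in limma) and 1.99 ± 0.69 for Mt2 (adjusted p = 0.0992, unadjusted 0.0191). Without NFIA-Tg iWAT replicate 3 the log2 change of Mt2 fell to 1.04 and the gene was then called (adjusted p = 0.0364), while that of Mt1 was 0.57 and was not called. Without NFIA-Tg iWAT replicate 2 the log2 change of Mt1 was 1.47 (adjusted p = 0.0468). Over all samples left out in turn, the settings for scaling and filter and the replicate block, the adjusted p ranged from 0.0468 to 0.208 for Mt1 and from 0.0364 to 0.200 for Mt2. The ratio of Mt2 to Mt1 was 0.413 to 1.09 in NFIA-Tg iWAT and 0.280 to 0.356 in WT iWAT.

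Of the 6 genes tested in iWAT, 0 were called higher by limma (2 at an unadjusted p under 0.05) and 1 was lower in NFIA-Tg, the importer Slc39a8, where 11.4% of all 12396 genes tested were called, 5.96% higher and 5.44% lower. An unadjusted p under 0.05 in limma was found for 3543 of the 12396 genes. Slc39a8 stood at 1.69, 1.70 and 1.31 FPKM in NFIA-Tg iWAT and at 2.96, 3.37 and 2.78 FPKM in WT iWAT. No sample overlapped, and Slc39a8 fell by 0.65 on the log2 scale (SE 0.14, adjusted p = 0.0242 in limma). The call was lost without WT iWAT replicate 2 (adjusted p = 0.0742), WT iWAT replicate 3 (0.0619), NFIA-Tg iWAT replicate 2 (0.0647) or NFIA-Tg iWAT replicate 3 (0.0719), with log2 changes between -0.58 and -0.70. The other 3 genes overlapped between the genotypes in iWAT. Mtf1 averaged 4.16 ± 0.52 FPKM in NFIA-Tg and 4.12 ± 0.32 FPKM in WT iWAT (adjusted p = 0.977). Slc30a1 averaged 4.03 ± 0.25 FPKM in NFIA-Tg and 4.33 ± 1.01 FPKM in WT iWAT (adjusted p = 0.812). Slc39a14 averaged 4.34 ± 0.63 FPKM in NFIA-Tg and 4.98 ± 1.05 FPKM in WT iWAT (adjusted p = 0.587 in limma).

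**Figure D4:**
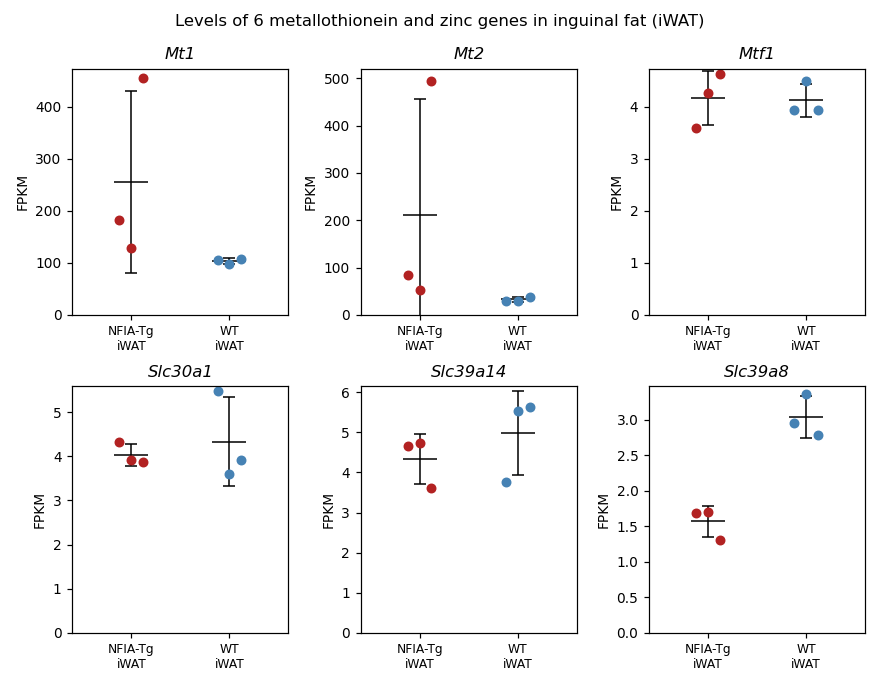
FPKM (linear axes from 0) of the 6 genes in the 6 iWAT samples, with NFIA-Tg in red at the left, WT in blue at the right, points for samples and black bars for mean ± SD (n = 3). For Mt1 and Mt2 all 3 NFIA-Tg samples lie above the WT samples and 1 of them, at 455 and 494 FPKM, lies far above the rest, and for Slc39a8 all 3 lie below. The axis cuts the lower SD bar of Mt2 in NFIA-Tg at 0, its SD being larger than its mean.

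Some marker lists moved with genotype in iWAT, and their part in these values was not tested. Of all 12396 genes tested there, 5.96% were called higher and 5.44% lower, and 3543 had an unadjusted p under 0.05 in limma. The 4 skeletal muscle markers summed to 11.8 to 39.7 FPKM in NFIA-Tg and to 123 to 182 FPKM in WT iWAT. Most of that sum was Acta1, at 22.1 ± 10.9 FPKM in NFIA-Tg and 135 ± 41.3 FPKM in WT iWAT and called lower, while Tnnt3, Myh4 and Ckm overlapped between the genotypes, Tnnt3 not being called and the other two being under the filter. The 4 markers of dividing cells summed to 2.79 to 3.66 FPKM in NFIA-Tg and to 6.07 to 9.16 FPKM in WT iWAT, and of the 3 tested Cdk1 was called lower (log2 -0.99 ± 0.17, adjusted p = 0.00959 in limma). The 5 endothelial markers summed to 243 to 307 FPKM in NFIA-Tg and to 375 to 451 FPKM in WT iWAT, and 3 of them were called lower. The 5 lymphocyte markers summed to 15.6 to 23.4 FPKM in NFIA-Tg and to 31.0 to 39.6 FPKM in WT iWAT, with 1 called lower. The 9 markers of mature adipocytes summed to 30271 to 41185 FPKM in NFIA-Tg and to 31523 to 36846 FPKM in WT iWAT. None of the 9 was at 0, and Plin1 was called higher. Most of that sum was Fabp4, at 23043.2 ± 5101.1 FPKM in NFIA-Tg and 20330.5 ± 967.7 FPKM in WT iWAT. The 4 mammary epithelial markers were listed at 0 in all 6 samples. The 6 macrophage markers summed to 392 to 496 FPKM in NFIA-Tg and to 483 to 610 FPKM in WT iWAT, and 0 were called by limma (2 at an unadjusted p under 0.05). The 5 smooth muscle and pericyte markers summed to 146 to 185 FPKM in NFIA-Tg and to 124 to 169 FPKM in WT iWAT, with Cspg4 called higher (log2 1.58 ± 0.29, adjusted p = 0.0125 in limma). The 7 preadipocyte and fibroblast markers summed to 380.1 to 484 FPKM in NFIA-Tg and to 426 to 526 FPKM in WT iWAT, with 0 of 6 tested called by limma (2 at an unadjusted p under 0.05), and the 3 mesothelial markers summed to at most 1.67 FPKM. NFIA-Tg iWAT replicate 3, the sample with the highest metallothionein levels, was the highest of the 6 samples for 6 of 12 genes that glucocorticoids induce, among them Tsc22d3 (239 FPKM, against 56.5 to 146 FPKM in the other 5) and Fkbp5 (115 FPKM, against 12.1 to 48.9 FPKM). For 5 others, Per1, Sgk1, Dusp1, Cebpd and Ddit4, NFIA-Tg iWAT replicate 1 was the highest, and for Angptl4 WT iWAT replicate 1 was. Sgk1 stood at 45.1 FPKM in NFIA-Tg replicate 3, against 37.2, 54.1 and 54.7 FPKM in WT iWAT. The share of all genes for which NFIA-Tg replicate 3 was the highest was not counted, so the 6 of 12 has no baseline. That sample also had the most symbols above 0 FPKM, 16469 against 14907 to 15491 in the other 5. A part of glucocorticoids in its metallothionein levels was not tested.

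Mtf1, the zinc sensor, had levels of 3.20 to 4.05 FPKM in all 12 culture libraries. It stood at 3.46, 3.96 and 4.04 FPKM in NFIA-Tg day 7, at 3.94, 3.95 and 4.05 FPKM in WT day 7, at 3.46, 3.43 and 3.20 FPKM in NFIA-Tg day 0 and at 3.46, 3.24 and 3.25 FPKM in WT day 0. The genotypes overlapped at both days, with adjusted p of 0.418 at day 7 and 0.828 at day 0 in limma. Mtf1 was higher at day 7 than at day 0 in NFIA-Tg (log2 0.14 ± 0.05, adjusted p = 0.0266 in limma) and in WT (log2 0.21 ± 0.05, adjusted p = 0.00360). In NFIA-Tg that call was lost without NFIA-Tg day 0 replicate 3 (adjusted p = 0.102), NFIA-Tg day 7 replicate 2 (0.0893) or NFIA-Tg day 7 replicate 3 (0.0978). Whether more of the MTF-1 protein is active cannot be read from its transcript.

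Slc30a1, the zinc exporter, was slightly higher in the libraries labelled NFIA-Tg at day 7. It stood at 3.15, 4.06 and 3.77 FPKM in NFIA-Tg day 7, against 2.91, 2.85 and 2.98 FPKM in WT day 7, with no overlap (log2 0.25 ± 0.07, adjusted p = 0.00646 in limma). The whole distribution was shifted at day 7, the median log2 change of all genes being -0.17 with the values as deposited and -0.06 after median-of-ratios scaling, and with that scaling the change of Slc30a1 was 0.35 (adjusted p = 0.000576). At day 0 it stood at 3.05, 3.44 and 2.95 FPKM in NFIA-Tg and at 3.58, 3.40 and 3.33 FPKM in WT, with overlap and no call (adjusted p = 0.249). Between the days, Slc30a1 was called higher at day 7 in NFIA-Tg (log2 0.17 ± 0.07, adjusted p = 0.0445) although the days overlapped, and lower in WT (log2 -0.18 ± 0.07, adjusted p = 0.0330 in limma). The NFIA-Tg call was lost in 10 of the 12 fits that leave out a library, those without any 1 WT library and those without NFIA-Tg day 0 replicate 1 or 3 or NFIA-Tg day 7 replicate 2 or 3, with adjusted p of 0.0526 to 0.197, and with no filter on low values (0.0713). The WT call was lost without WT day 0 replicate 1 (adjusted p = 0.10) or 2 (0.0597), without WT day 7 replicate 1 (0.0663) or 2 (0.0822) and with no filter (0.0561).

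Slc39a14, an importer of zinc, iron and manganese, was the gene of the set with the largest fall in differentiation, and its genotype difference was found at day 0. It stood at 4.81, 4.59 and 3.98 FPKM in NFIA-Tg day 7 and at 4.57, 4.36 and 4.70 FPKM in WT day 7, with overlap and no call (adjusted p = 0.840). At day 0 it stood at 31.2, 22.9 and 27.2 FPKM in NFIA-Tg, against 48.5, 42.3 and 53.9 FPKM in WT. The libraries labelled NFIA-Tg day 0 were all below those labelled WT, and Slc39a14 was lower by limma (log2 -0.81 ± 0.11, adjusted p = 2.71e-05). Relative to day 0, its level at day 7 was 0.165 times as high in NFIA-Tg (log2 -2.36 ± 0.11, adjusted p = 1.76e-10) and 0.0943 times as high in WT (log2 -3.14 ± 0.11, adjusted p = 1.94e-11 in limma). In WT only 2.1% of genes changed more between the days.

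Slc39a8, the related importer, had the lowest levels of the set in the cultures. It stood at 1.58, 1.79 and 1.37 FPKM in NFIA-Tg day 7 and at 1.27, 1.10 and 1.11 FPKM in WT day 7, with no overlap, and it was higher in the libraries labelled NFIA-Tg (log2 0.25 ± 0.09, adjusted p = 0.0159 in limma; 0.33 with median-of-ratios scaling). This call was lost without WT day 7 replicate 2 (adjusted p = 0.0503) or NFIA-Tg day 7 replicate 2 (0.0736). At day 0 it stood at 1.68, 1.59 and 2.19 FPKM in NFIA-Tg, against 2.47, 2.53 and 2.80 FPKM in WT, and it was lower (log2 -0.36 ± 0.09, adjusted p = 0.00295 in limma). Between the days it was lower at day 7 in WT (log2 -0.74 ± 0.09, adjusted p = 4.04e-06) and not called in NFIA-Tg (log2 -0.13 ± 0.09, adjusted p = 0.182). Only 1 of the 6 genes, Slc39a8, was called in iWAT and at both culture days, and its direction at day 7 was opposite to that in iWAT.

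Cell type markers also differed between the libraries of the cultures. Of all genes tested, 29.8% were called higher and 51.1% lower at day 7, and 28.1% and 34.9% at day 0. The counts of markers called stand beside those shares, and 4 of 8 called lower at day 7 is near the general share. The 9 mature adipocyte markers summed to 26096 to 29756 FPKM in NFIA-Tg day 7 and to 25480 to 29835 FPKM in WT day 7, with 22.7 to 31.8 FPKM in NFIA-Tg day 0 and 13.3 to 16.0 FPKM in WT day 0. The sums overlapped between the genotypes at day 7, but most of each day 7 sum was Fabp4. Fabp4 was at 25679 ± 1814 FPKM in NFIA-Tg and 22169 ± 2243 FPKM in WT and was not called. Of the 8 adipocyte markers tested at day 7, 4 were called lower in NFIA-Tg and 4 were not called. Adipoq was at 258 ± 17.9 FPKM in NFIA-Tg and 1295 ± 26.8 FPKM in WT (log2 -2.32 ± 0.06). The others called lower were Cfd (log2 -1.57), Retn (log2 -1.32) and Cidec (log2 -0.83). The 7 preadipocyte and fibroblast markers summed to 223 to 308 FPKM in NFIA-Tg day 7, against 948 to 1072 FPKM in WT day 7, and 5 of 6 tested were called lower and Pi16 higher. At day 0 they summed to 4724 to 5384 FPKM in NFIA-Tg and to 4425 to 4605 FPKM in WT, and 3 of 6 were called higher and the other 3 were not called. The 4 markers of dividing cells were all lower in NFIA-Tg, with sums of 88.1 to 92.7 FPKM in NFIA-Tg day 7 and 268 to 281 FPKM in WT day 7. Their sums at day 0 were 47.4 to 51.9 FPKM in NFIA-Tg and 139 to 142 FPKM in WT. The 6 macrophage markers were low but their sums separated the genotypes, at 6.92 to 7.33 FPKM in NFIA-Tg day 7, 2.94 to 3.31 FPKM in WT day 7, 7.51 to 9.64 FPKM in NFIA-Tg day 0 and 5.85 to 6.34 FPKM in WT day 0. Most of the day 7 sum was Cd68, at 6.98 ± 0.21 FPKM in NFIA-Tg and 2.66 ± 0.005 FPKM in WT. Cd68 was called higher in NFIA-Tg at day 7 (log2 1.13 ± 0.05) and at day 0 (log2 0.22 ± 0.05). Csf1r, under the filter, went the other way at day 7, at 0.0097 FPKM in NFIA-Tg and 0.189 FPKM in WT. Lyz2 overlapped at day 7 and was not called (0.121 FPKM in NFIA-Tg and 0.328 FPKM in WT), and it was called higher at day 0 (log2 0.55 ± 0.12). Adgre1 was listed at 0 in every library of 3 of the 4 groups. The 5 smooth muscle and pericyte markers summed to 15.0 to 15.8 FPKM in NFIA-Tg day 7, 8.91 to 9.59 FPKM in WT day 7, 22.2 to 26.8 FPKM in NFIA-Tg day 0 and 10.7 to 11.5 FPKM in WT day 0, and 2 of 4 tested were called higher and 2 lower at day 7. The 5 endothelial markers summed to 3.11 to 3.61 FPKM in NFIA-Tg day 7 and to 2.22 to 2.52 FPKM in WT day 7, with Pecam1 called higher and Kdr and Tek lower, and the sums overlapped at day 0. The 3 mesothelial markers overlapped at day 7 and summed to 16.8 to 20.9 FPKM in NFIA-Tg day 0 and to 25.8 to 27.2 FPKM in WT day 0, with Krt19 called lower. The skeletal muscle markers summed to at most 10.4 FPKM and were higher in sum in NFIA-Tg at both days, and the lymphocyte and mammary epithelial markers each summed to at most 0.206 FPKM. Their part in the levels of the zinc genes was not tested.

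The other zinc transporters were described from lists of 9 further exporters of the Slc30a family and 12 further importers of the Slc39a family, of which 5 and 8 passed the filter on low values. Among all genes tested, 29.8% were called higher and 51.1% lower at day 7, 28.1% and 34.9% at day 0, 45.7% and 41.5% in differentiation in NFIA-Tg and 46.2% and 35.4% in differentiation in WT, and the counts of the lists that follow stand beside those shares. In iWAT the shares were 5.96% and 5.44%, and 3543 of 12396 genes had an unadjusted p under 0.05 in limma. At day 7, 4 exporters were higher and 1 was lower in the libraries labelled NFIA-Tg, with a median log2 change of 0.28 against -0.17 over all genes. The largest rise was that of Slc30a9, a zinc transporter also known as ZnT9, at 43.6 ± 2.24 FPKM in NFIA-Tg and 26.2 ± 1.08 FPKM in WT (log2 0.71 ± 0.05, adjusted p = 1.44e-08 in limma). Slc30a6, which transports zinc into the secretory pathway, was lower (log2 -0.23 ± 0.06, adjusted p = 0.00468), a call lost with median-of-ratios scaling (log2 -0.10, adjusted p = 0.130). At day 0, 0 exporters were higher by limma, at an unadjusted p under 0.05 or by voom, and 2 were lower, Slc30a4 (log2 -0.42 ± 0.06, adjusted p = 8.39e-05) and Slc30a5, with a median of -0.04 against -0.03 over all genes.

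Of the 8 importers tested, 3 were higher and 4 lower in the libraries labelled NFIA-Tg at day 7, with a median log2 change of -0.13, close to the -0.17 of all genes. Slc39a11 (ZIP11) was at 11.9 ± 0.91 FPKM in NFIA-Tg and 5.04 ± 0.18 FPKM in WT (log2 1.10 ± 0.06, adjusted p = 5.20e-09 in limma). Slc39a13 (ZIP13), a transporter of vesicles and the Golgi, was at 9.34 ± 0.70 FPKM in NFIA-Tg and 14.6 ± 0.71 FPKM in WT (log2 -0.60 ± 0.05, adjusted p = 4.01e-07). At day 0, 2 were higher, Slc39a10 (log2 0.62 ± 0.07) and Slc39a6, and 1 lower, Slc39a13 (log2 -0.26 ± 0.05). In differentiation 6 of 8 importers were lower at day 7 in each genotype, where 41.5% of all genes were called lower in NFIA-Tg and 35.4% in WT, with medians of -0.70 in NFIA-Tg and -0.63 in WT against 0.05 and 0.09 over all genes. Slc39a6 (ZIP6) had the largest fall in both, at 9.94 ± 0.37 FPKM in NFIA-Tg day 7 against 29.8 ± 0.68 FPKM in NFIA-Tg day 0 and at 10.4 ± 0.34 FPKM in WT day 7 against 27.7 ± 0.72 FPKM in WT day 0. Slc39a9 was higher at day 7 in NFIA-Tg (log2 0.48 ± 0.05) and in WT (log2 0.17 ± 0.05, adjusted p = 0.00730), the WT call being lost with median-of-ratios scaling (log2 0.08, adjusted p = 0.177). Of the exporters, 3 were higher and 2 lower at day 7 in NFIA-Tg and 1 was higher and 2 lower in WT, Slc30a9 having the largest rise in both (log2 1.30 ± 0.05 in NFIA-Tg and 0.54 ± 0.05 in WT) and Slc30a7 the largest fall (log2 -0.78 ± 0.04 in NFIA-Tg and -0.85 ± 0.04 in WT). In iWAT, 0 of the 5 exporters and 0 of the 8 importers were called by limma (1 of each at an unadjusted p under 0.05), with medians of 0.04 and 0.08 against 0.05 over all genes.

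**Figure D5:**
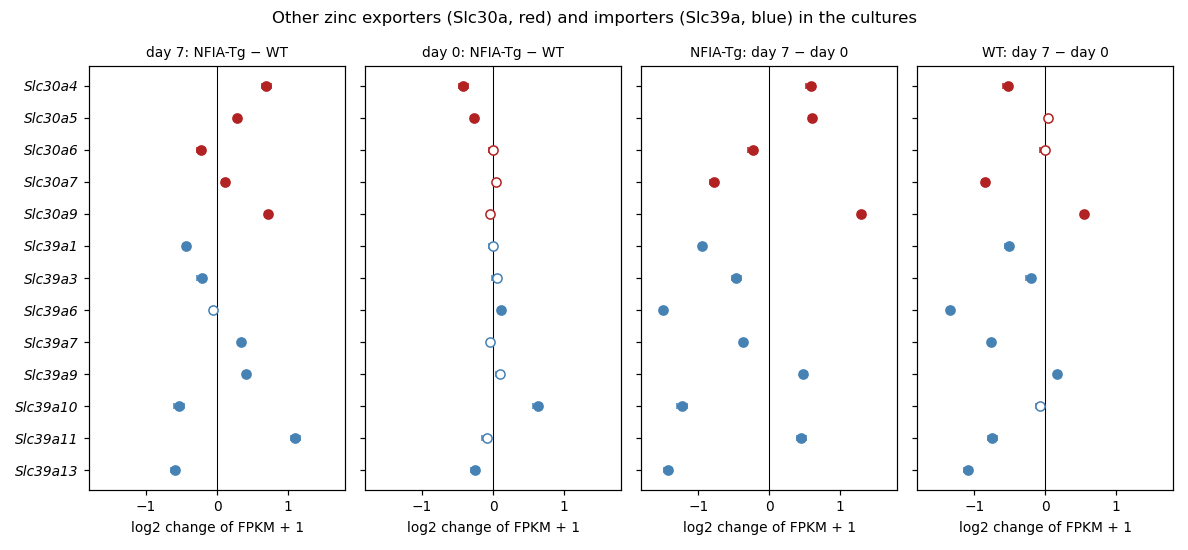
Log2 changes of FPKM + 1 (± SE) of the other 5 exporters (Slc30a, red) and 8 importers (Slc39a, blue) tested in the cultures, 1 panel per comparison, with filled points for genes called and open points for genes not called. Most exporters lie to the right of 0 at day 7, and most importers lie to the left of 0 in the 2 panels for differentiation.

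Lists of genes induced by glucocorticoids and by oxidative stress, which are also known to raise metallothioneins, were described in the same way. Of 12 genes induced by glucocorticoids, 3 were higher and 4 lower in the libraries labelled NFIA-Tg at day 7. Their median log2 change was 0.10, against -0.17 over all genes. Klf9, a transcription factor, was at 77.2 ± 4.47 FPKM in NFIA-Tg and 28.6 ± 0.68 FPKM in WT, while Tsc22d3, which encodes GILZ, was at 23.2 ± 3.74 FPKM in NFIA-Tg and 43.3 ± 2.61 FPKM in WT. At day 0, 5 were higher and 3 lower, with Angptl4 at log2 0.96 ± 0.10 and Fkbp5 at log2 -1.48 ± 0.10. Between the days, 8 were higher and 4 lower at day 7 in NFIA-Tg and 7 higher and 4 lower in WT, Zbtb16 having the largest rise in both (24.4 ± 3.08 FPKM in NFIA-Tg day 7 against 0.022 ± 0.013 FPKM in NFIA-Tg day 0, and 21.8 ± 2.13 FPKM in WT day 7 against 0 FPKM in WT day 0) and Cebpd the largest fall (log2 -2.46 ± 0.14 in NFIA-Tg and -2.48 ± 0.14 in WT). In iWAT 0 of the 12 were called by limma (2 at an unadjusted p under 0.05), with a median of 0.54 against 0.05 over all genes. A part of glucocorticoids in the metallothionein levels was not tested.

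Of 10 targets of NRF2, the factor that answers oxidative stress, 6 were higher and 3 lower in the libraries labelled NFIA-Tg at day 7. Of all genes tested, 29.8% were called higher and 51.1% lower. The median log2 change of the targets was 0.54, against -0.17 over all genes. Hmox1, which encodes heme oxygenase 1, stood at 627, 764 and 804 FPKM in NFIA-Tg day 7, against 76.9, 76.3 and 74.6 FPKM in WT day 7 (log2 3.24 ± 0.08, adjusted p = 4.81e-12 in limma). Gsr, which encodes glutathione reductase, was lower at day 7 (log2 -1.11 ± 0.04) and at day 0 (log2 -0.70 ± 0.04). At day 0, 5 targets were higher and 2 lower, with a median of 0.13 against -0.03 over all genes. Osgin1 had the largest rise (log2 1.14 ± 0.08), and Hmox1 was at 157 ± 10.1 FPKM in NFIA-Tg and 114 ± 6.0 FPKM in WT. Hmox1 was therefore higher in NFIA-Tg at both days. A part of NRF2 or oxidative stress in the metallothionein levels was not tested. Between the days, 7 targets were higher and 2 lower at day 7 in NFIA-Tg, with Hmox1 at log2 2.21 ± 0.08 and Nqo1 at -0.66 ± 0.10. In WT 6 were higher and 4 lower, with Prdx1 at log2 1.13 ± 0.05 and Hmox1 at -0.58 ± 0.08. In iWAT 0 of the 9 tested were called by limma (1 at an unadjusted p under 0.05).

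The metals that metallothioneins and the 2 importers carry were followed through lists for copper and for iron and manganese. Of 10 copper genes tested, 3 were higher and 3 lower at day 7, Cox17, a copper chaperone of cytochrome oxidase, being at 210 ± 16.8 FPKM in NFIA-Tg and 83.7 ± 3.92 FPKM in WT, and Atp7a, a copper-exporting ATPase, at 3.90 ± 0.24 FPKM in NFIA-Tg and 6.92 ± 0.05 FPKM in WT. At day 0, 3 were higher, led by Steap4 (log2 0.95 ± 0.15), and 4 lower, led by Cp (log2 -0.56 ± 0.10). Between the days, 7 copper genes were higher and 3 lower at day 7 in NFIA-Tg and 6 higher and 1 lower in WT, Steap4, a metalloreductase, having the largest rise in both (log2 3.29 ± 0.15 in NFIA-Tg and 4.31 ± 0.15 in WT) and Slc31a2 the largest fall in both (log2 -0.58 ± 0.08 in NFIA-Tg and -0.21 ± 0.08 in WT). The WT call of Slc31a2 was lost without WT day 0 replicate 3 (adjusted p = 0.0633) or without WT day 7 replicate 2 (0.101) or 3 (0.0515). In iWAT 2 of 10 were called, both higher in NFIA-Tg, Sod1 and Steap4, the second at 215 ± 31.6 FPKM in NFIA-Tg and 118 ± 35.1 FPKM in WT (log2 0.88 ± 0.20, adjusted p = 0.0298 in limma). The Steap4 call was lost with no filter (adjusted p = 0.0778) and without WT iWAT replicate 2 (0.0854) or 3 (0.0917) or NFIA-Tg iWAT replicate 2 (0.0964) or 3 (0.0683).

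Of 9 iron and manganese genes tested, 4 were higher and 3 lower at day 7. Heph, the copper-dependent ferroxidase hephaestin, was at 7.71 ± 0.26 FPKM in NFIA-Tg and 0.744 ± 0.03 FPKM in WT (log2 2.32 ± 0.05), and Steap3, an endosomal ferrireductase, was at 4.41 ± 0.37 FPKM in NFIA-Tg and 13.6 ± 1.14 FPKM in WT (log2 -1.43 ± 0.07). At day 0, 6 were higher and 2 lower, Heph at log2 2.47 ± 0.05 and Tfrc, the transferrin receptor, at -0.82 ± 0.06. Between the days, 7 were higher and 2 lower at day 7 in NFIA-Tg and 4 higher and 2 lower in WT, Aco1 having the largest rise in both (log2 2.52 ± 0.03 in NFIA-Tg and 2.89 ± 0.03 in WT) and Steap3 the largest fall (log2 -2.43 ± 0.07 in NFIA-Tg and -0.59 ± 0.07 in WT). In iWAT 1 of 9 was called, the iron exporter Slc40a1 (ferroportin), at 4.43 ± 0.44 FPKM in NFIA-Tg and 7.80 ± 0.75 FPKM in WT (log2 -0.70 ± 0.13, adjusted p = 0.0125 in limma). That call was lost without WT iWAT replicate 3 (adjusted p = 0.0560) or NFIA-Tg iWAT replicate 2 (0.0556).

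Interleukin 6 and STAT3 induce Slc39a14 and metallothioneins in liver. Of 9 genes of that response tested, 1 was higher and 6 lower in the libraries labelled NFIA-Tg at day 7, where 51.1% of all genes were called lower and 80.9% were called, with a median log2 change of -0.99 against -0.17 over all genes. Lcn2, the iron-siderophore binding lipocalin, was at 172 ± 41.9 FPKM in NFIA-Tg and 26.6 ± 4.80 FPKM in WT, and Saa3, an acute-phase protein whose reads may be shared with close copies, was at 1.02 ± 0.43 FPKM in NFIA-Tg and 46.2 ± 5.99 FPKM in WT. At day 0, 4 were higher and 2 lower, with a median of -0.02 against -0.03 over all genes. Hp (haptoglobin) was at log2 1.73 ± 0.20 and Saa3 at log2 -4.41 ± 0.31. Between the days, 1 was higher and 7 lower at day 7 in NFIA-Tg and 2 were higher and 6 lower in WT. The medians were -2.36 in NFIA-Tg and -1.24 in WT, against 0.05 and 0.09 over all genes. Saa3 had the largest fall in both (log2 -3.92 ± 0.31 in NFIA-Tg and -3.77 ± 0.31 in WT). Lcn2 had the largest rise in NFIA-Tg (log2 2.74 ± 0.28) and Hp in WT (log2 3.46 ± 0.20). In iWAT 1 of 8 was called, Hp, at 1017 ± 199 FPKM in NFIA-Tg and 3404 ± 491 FPKM in WT (log2 -1.75 ± 0.20, adjusted p = 0.00227 in limma). A part of interleukin 6 or STAT3 in the levels of Slc39a14 or the metallothioneins was not tested.

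Mt2 and Mt1 are neighbours on chromosome 8, where RefSeq lists in order Ogfod1, Bbs2, Mt4, Mt3, Mt2, Mt1, Nup93, Slc12a3 and Herpud1. These neighbours were taken for their position. Nup93, a nuclear pore protein next to Mt1, was lower in the libraries labelled NFIA-Tg at day 7 (log2 -0.72, adjusted p = 4.91e-09) and at day 0 (log2 -0.50, adjusted p = 5.05e-07 in limma). Bbs2 was higher at both days (log2 0.56 and 0.45), and Ogfod1 was lower at both (log2 -0.51 and -0.31). Herpud1, a gene of the endoplasmic reticulum stress response, was at 228 ± 19.0 FPKM in NFIA-Tg day 7 and 27.6 ± 0.99 FPKM in WT day 7 (log2 3.0, adjusted p = 3.67e-13), and at 39.6 ± 0.63 FPKM in NFIA-Tg day 0 and 37.3 ± 0.47 FPKM in WT day 0 (adjusted p = 0.184 in limma). None of the 4 neighbours that could be tested was called in opposite directions at the 2 days. How many of all genes were so called was not counted, so this count has no baseline. The opposite directions of Mt1 belong to the pattern by which the set was chosen.

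The genes most like Mt2 across the 12 culture libraries were looked for among 9479 genes by Pearson correlation of log2(FPKM + 1), a description over libraries that share 4 groups. Mt1 correlated with Mt2 at r = 0.974, while Slc30a1 did at 0.677, Mtf1 at 0.244, Slc39a8 at 0.081 and Slc39a14 at -0.365. The 5 nearest genes outside the set were Fam162a (r = 0.984), Mroh1 (0.984), Dusp3 (0.983), Mboat1 (0.982) and Aig1 (0.981). Fam162a averaged 517 ± 28.0 FPKM in NFIA-Tg day 7, 158 ± 40.1 FPKM in WT day 7, 148 ± 24.7 FPKM in NFIA-Tg day 0 and 239 ± 11.0 FPKM in WT day 0, the same order of groups at the top as Mt2. The 5 nearest to Mt1 were Vhl (r = 0.994), which encodes the substrate receptor that marks HIF proteins for degradation, Erlin1 (0.990), Osbpl9 (0.988), Nars (0.985), an asparaginyl tRNA synthetase, and Primpol (0.985). Vhl averaged 26.7 FPKM in NFIA-Tg day 7, 15.3 FPKM in WT day 7, 12.8 FPKM in NFIA-Tg day 0 and 15.8 FPKM in WT day 0. In iWAT, 9 of these 10 genes passed the filter and 0 were called by limma (2 at an unadjusted p under 0.05), Erlin1 having the smallest adjusted p (0.0665, unadjusted 0.00931).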

How the data were processed

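RNA-seq covered 18 samples in 6 groups of 3, grouped by the labels. Libraries came from a stranded kit for polyadenylated RNA, per the labels' protocols. STAR 2.7.8a, StringTie 2.1.1 and the build mm9 are named in the submitters' processing notes, without their roles. The sources used here do not give the annotation or the rule for counting reads. Each deposited file gives FPKM and a length per gene, per the file headers. The authors' length (other unit: bases) is the exon length in cultures and resembles the whole gene span in iWAT. In cultures the product of FPKM and length was a whole number of reads for 99.98 to 100% of values (tolerance 0.01), so reads were recovered, while in iWAT they were not. Entries with the same symbol, 410 for 180 symbols, were summed in iWAT.

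limma 3.58.1 (R 4.3.3) was run on log2(FPKM + 1) with a mean-variance trend, two-sided, for genes at FPKM 1 or more in at least 3 samples, in 6 iWAT samples (4 residual degrees of freedom) and in 12 culture samples in 1 fit (8). The test was tried on simulated data. The 6 genes, the 8 lists of pathway genes and the 10 marker lists were chosen with earlier results of these data known, so the tests of the 5 genes in the cultures are no independent support for the pattern by which the set was chosen. Genes named from a list are the called genes with the largest rise and fall (mean of 1 FPKM or more in the higher group), with the 5 genes most like Mt1 and Mt2 (5 FPKM or more); others, and single samples of named genes, were chosen after their values were seen. Alternatives were a pseudocount of 0.1, no filter, median-of-ratios scaling, each sample left out, a replicate block and, added after seeing the data, voom on the recovered reads.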

Additional observations from a re-analysis of the deposited data

Results flagged for a closer look

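For 3 of the genes, every NFIA-Tg sample lay on 1 side of the WT samples in 1 setting and every NFIA-Tg sample on the other side in another. None of these differences between settings was tested, and those of Mt1 and Mt2 in the cultures are the pattern by which the set was chosen. Of all genes tested, 80.9% were called at day 7, 63.0% at day 0 and 11.4% in iWAT. How many of all genes were separated on opposite sides in this way was not counted, so the count of 3 cannot be set apart from the general share. For Mt1 the log2 difference between NFIA-Tg and WT was 2.88 at day 7 and -1.25 at day 0, and it was 1.09 in iWAT. For Mt2 it was 4.0 at day 7 and -1.96 at day 0, and it was 1.99 in iWAT. The log2 difference between day 7 and day 0 of Mt2 was 4.61 in the libraries labelled NFIA-Tg and -1.36 in those labelled WT, again with every library on opposite sides. For Slc39a8 the log2 difference between NFIA-Tg and WT was -0.65 in iWAT, 0.25 at day 7 and -0.36 at day 0, so that iWAT and day 7, and day 7 and day 0, lay on opposite sides. The day 7 values of Nfia go against the genotype labels, which bears on each direction given for day 7. It bears equally on the comparisons between days in each genotype and on the contrast by which the set was chosen.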

How the results depend on the processing

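Of 1511 recomputed log2 changes of the genes named, 1469 stayed on their side of the threshold or, for values with no test, moved by less than the spread between replicates, 37 lost a call, 5 gained one and 0 called values changed direction. The count of genes called in iWAT, 1413, was 934 with no filter on low values, and it was 617 to 1262 when 1 sample was left out, being 617 without WT iWAT replicate 3, 638 without NFIA-Tg iWAT replicate 2, 745 without NFIA-Tg iWAT replicate 3 and 814 without WT iWAT replicate 2. With median-of-ratios scaling the calls split into 603 higher and 814 lower in iWAT (739 and 674 as deposited), 4578 and 5414 at day 7 (3746 and 6409), 3951 and 3877 at day 0 (3533 and 4378), 5749 and 5241 for differentiation in NFIA-Tg (5741 and 5209) and 5182 and 5050 in WT (5796 and 4450), so the more frequent direction turned in iWAT and at day 0. Leaving out 1 library gave 9706 to 10079 calls at day 7, 7110 to 8026 at day 0, 10588 to 10887 for differentiation in NFIA-Tg and 9854 to 10241 in WT. Same-numbered samples deviated from their group means with correlations of 0.007 to 0.115 in iWAT and -0.108 to 0.156 in the cultures, so the numbers were not taken to pair samples. With the replicate block 1282 genes were called in iWAT and Mt2 was then called there (log2 1.99, adjusted p = 0.0495), and no other call of the 6 genes changed. Over all alternatives the log2 change of Mt1 stayed between 2.69 and 3.03 at day 7 and between -1.30 and -1.18 at day 0, and that of Mt2 between 3.82 and 4.14 and between -2.12 and -1.88. Depth limits Slc39a8 most, with 90 to 273 reads per culture library, and in iWAT 3 samples a group and unknown depth limit every value.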
